A study of Oryza sativa with 12 samples.

Results

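Peroxidase genes of rice were followed in leaf mRNA that was bound to polysomes, that is, to several ribosomes at once. The members were taken by symbol: every nuclear gene of the deposited tables whose name starts with prx, PRX or POX and a number, with or without Os in front. The rule found 110 genes of 37849 nuclear loci, of which 104 carry a prx symbol, 5 a POX symbol and 1 the symbol OsPRX2. OsPRX2 (Os02g0537700) is known in rice as a chloroplast peroxiredoxin, a thiol-based enzyme of another family, and it shares its number with the peroxidase prx2. It is therefore given apart from the other 109 wherever it changes a count. 5 like symbols (OsPrx, poxN, POXgX9, Pox and poxA) carry no number in that place and fall outside the rule, and OsPrx (Os06g0196300) is known as another chloroplast peroxiredoxin.

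Class III peroxidases are heme enzymes of land plants that are secreted to the cell wall and the vacuole. They use hydrogen peroxide to oxidise phenolic compounds, which joins lignin units and cross-links wall polymers, and they can also form reactive oxygen. The family is large in grasses, many of its genes lie side by side as duplicates, and in leaves its members are known for wall stiffening, wound responses and defence.

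The study set drought against control in 2 rice cultivars of the indica type, APO, named tolerant in the study's title, and IR64, named susceptible. The groups are APO drought, APO control, IR64 drought and IR64 control, with 3 libraries each and 12 in all. The title gives the drought level as 50%. The sources used here do not say what that percentage refers to, how old the plants were, how long the stress lasted or whether each library stands for plants of its own, so p-values measure the spread between libraries, which may be technical. No transgene or mutation is named, and all groups are leaf polysomal RNA.

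Levels are deposited TPM (transcripts per 1000000, a level per transcript length) rescaled here so that the nuclear loci of each library sum to 1000000, and called nuclear TPM below. Nuclear loci held 12.3% to 83.3% of deposited TPM in 10 libraries, but 5.04% in APO control 3 and 1.21% in the library labelled APO drought 1. Those 2 libraries were left out of the tests. Test results of the members are also given with all 12, those of the lignin list only with the 10. The library labelled APO drought 1 also lacked genes typical of the other APO libraries. Of 17 genes high in every other APO library and at least 8 times higher than in every IR64 library, 0 were above 1 nuclear TPM in it, while 3 of 8 genes with the reverse pattern were. It had the fewest nuclear loci above 0 of all libraries, 9976, and the part of low detection in this was not tested. APO control 2 also had 3 of 8 genes of the reverse pattern above 1, but 0 genes of the first pattern were available to check it. The deposited tables hold no read counts, so depth is given as their coverage (mean reads per base): for the same FPKM, coverage was lowest in IR64 drought 3 and highest in IR64 control 2, at 0.608 and 7.34 units of coverage per FPKM. This index leaves out the nuclear share, so libraries with a low share were shallower on the nuclear scale than it shows. Of 12 leaf photosynthesis markers (RbcS, Lhc and CAB symbols), 11 or 12 were above 1 nuclear TPM in each of the 10 libraries. Their summed level was 1833 and 1626 in APO drought 2 and 3, against 16890 and 25870 in APO control 1 and 2. In IR64 it was 19530, 16210 and 9458 in drought, against 30270, 33660 and 19110 in control. The left-out libraries had 13850 in the one labelled APO drought 1 and 11130 in APO control 3, so the APO groups overlapped with all 12. The leaf markers were thus lower in APO drought 2 and 3 than in the APO control libraries. Their part in the results below was not tested. Root markers (RCc3, LSI1 and LSI2) added up to 0 to 68.1, shoot meristem markers (OSH1 and OSH15) to 0 to 10.5 and the guard cell marker SLAC1 to 0 to 47.8. APO control 3 was the only library with all 3 root and both meristem markers above 1. In bulk leaf RNA, fewer cells of a type and less RNA per cell cannot be told apart.

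Most members were low. Of the 109 peroxidases, 49 had a mean of at least 1 nuclear TPM over the 10 libraries, 17 reached 5 and 9 reached 10. Only prx8 and prx62 were at 0 in all 12 libraries. OsPRX2 had the highest mean of the 110, 487 nuclear TPM. POX22.3, a peroxidase known to be induced in rice leaves that resist the bacterial blight pathogen, came next at 53.5, before prx122 at 39.0, POX5.1 at 25.0 and prx71 at 19.2. The means of prx20, prx16, prx51, POX8.1 and prx29 lay between 10.9 and 14.8. Differences among these means were smaller than the spread across libraries: prx122 was lowest in IR64 drought 3, at 0, and highest in IR64 control 3, at 99.8, and prx20 had 42.4 and 0 in IR64 drought 1 and 3. prx16 was steadier, at 15.9 and 18.5 in APO drought 2 and 3, 17.0 and 7.73 in APO control 1 and 2, 17.6, 10.1 and 23.3 in IR64 drought, and 2.82, 1.94 and 16.0 in IR64 control.

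**Figure D1:**
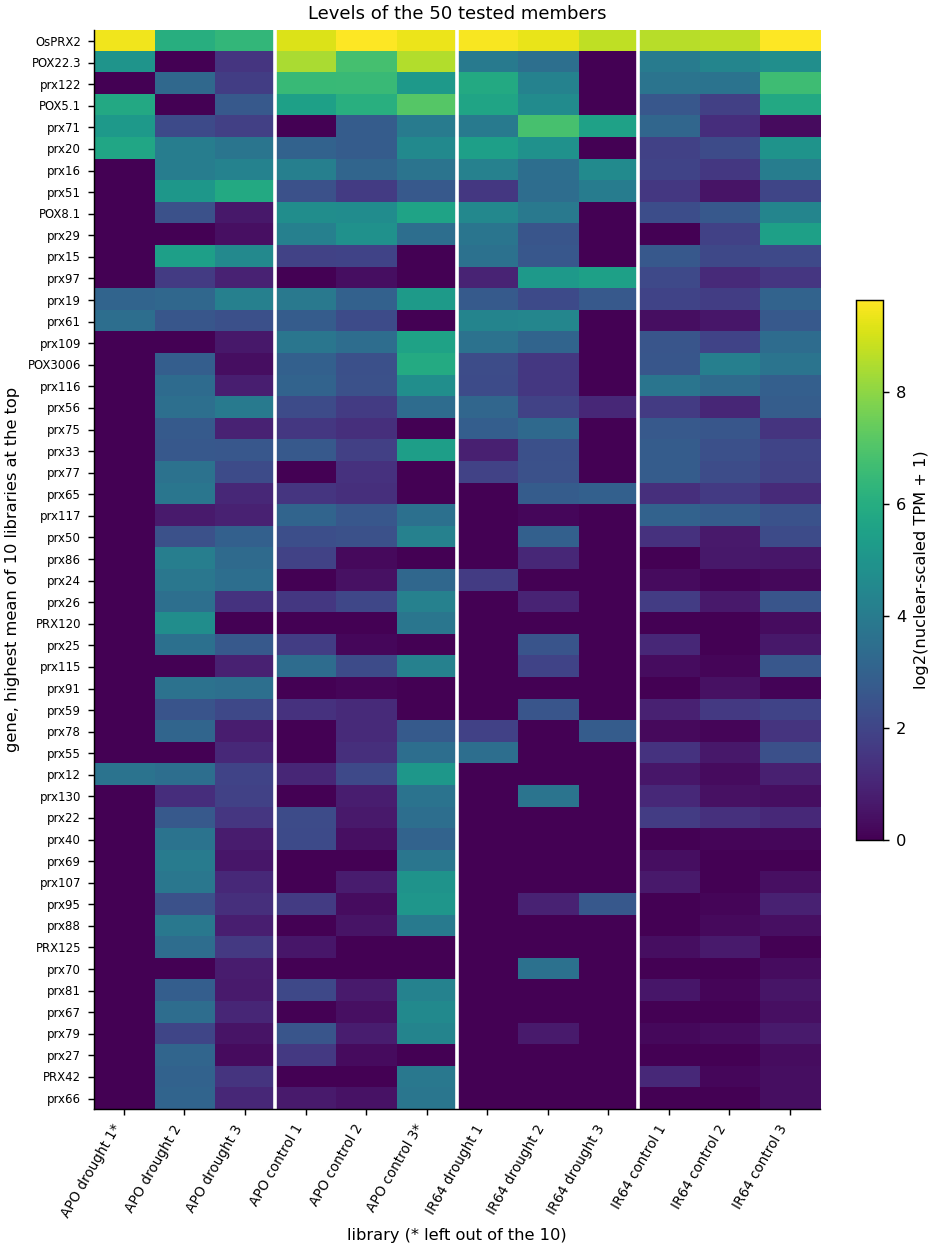
Heat map of the 50 tested members (rows, highest mean at the top) in the 12 libraries (columns, by group, asterisks on the 2 left out of the 10), with colour giving log2(nuclear-scaled TPM + 1). OsPRX2, with a mean of 487, and POX22.3, with 53.5, head the map, and most lower rows are near 0 outside APO drought 2, APO drought 3 and APO control 3.

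The number of peroxidases above 1 nuclear TPM varied widely between libraries of a group. In APO drought 2 and 3, 66 and 43 of the 109 were above 1 nuclear TPM (60.6% and 39.4%), against 48 and 29 (44.0% and 26.6%) in APO control 1 and 2. In IR64 drought 29, 32 and 12 were, against 28, 22 and 31 in IR64 control. The drought and control ranges overlap in both cultivars. In APO drought 2, 67 of the 109 were above 0 and 66 above 1, against 99 and 43 in the deeper APO drought 3. The count above 1 therefore also depends on depth, since in a shallow library nearly every gene with reads exceeds 1. Among all nuclear loci the shares above 1 were 58.4% and 56.2% in APO drought 2 and 3, against 57.2% and 52.5% in APO control 1 and 2, and 40.3% to 54.0% in the 6 IR64 libraries. APO control 3, left out of the tests, had the highest share of peroxidases, 67.0%, with a median member at 10.8, and the library labelled APO drought 1 had the lowest, 10.1%. The members' levels added up to 536 and 286 nuclear TPM in APO drought 2 and 3, against 689 and 429 in APO control 1 and 2. In IR64 the sums were 336, 387 and 163 in drought, against 140, 122 and 405 in control.

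**Figure D2:**
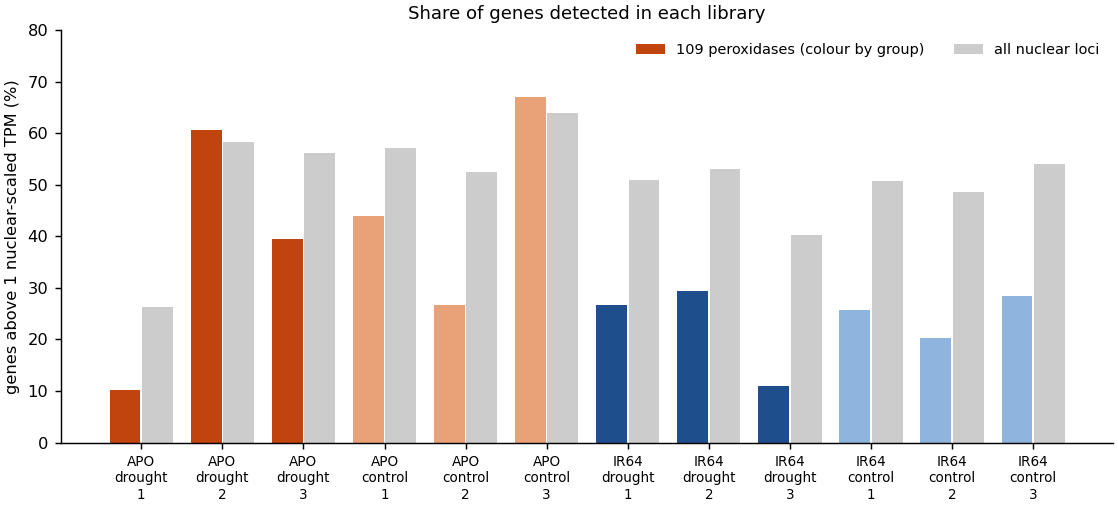
Share of the 109 peroxidases and of all nuclear loci above 1 nuclear TPM (percent) in each of the 12 libraries. The peroxidase share runs from 10.1% in the library labelled APO drought 1 to 67.0% in APO control 3, the libraries left out of the 10. The shares also depend on library depth.

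In APO, drought went with lower POX22.3, OsPRX2 and prx117 and with higher prx91, prx24, prx51, prx86, PRX42 and PRX125. 50 members had a mean of at least 1 and were tested, and 60 were not. 6 of the 50 (12.0%) rose and 3 (6.0%) fell at an adjusted p under 0.05 in limma, against 6.8% and 7.6% of all 22812 genes tested, so the share that fell was near the background. Without OsPRX2, 6 of 49 rose and 2 fell. Of the 6 that rose, all but prx51 had a mean below 1 over the other 8 libraries and reached the minimum only through APO drought 2 and 3, so these shares describe the genes tested and not the family. The median difference of the 50, which the same filter shapes, was 0.81 on the log2(nuclear TPM + 1) scale, against -0.24 for all genes tested. It was -0.34 against -0.44 with a minimum mean of 5, -0.60 against -0.63 with all 12 libraries and -0.11 against -0.74 on the deposited TPM of the 10 libraries, so its sign depends on all 3 choices.

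POX22.3 (Os07g0677200, chromosome 7, 28673754 to 28675351, plus strand, as the deposited tables give it) fell furthest of the members that passed. It was at 0 and 1.80 nuclear TPM in APO drought 2 and 3, against 336 and 111 in APO control 1 and 2. The 2 libraries left out had 30.9 in the one labelled APO drought 1 and 369 in APO control 3, so every library labelled drought lay below every control library. The difference was -6.86 ± 1.15 (SE) on the log2 scale, with an adjusted p of 0.00356 in limma, and -5.75 with an adjusted p of 0.0205 with all 12 libraries. Coverage of the gene was 0 and 2.99 reads per base in APO drought 2 and 3, against 70.9 and 198 in APO control 1 and 2. Without APO control 1 the difference was -6.06 and no longer passed (adjusted p = 0.0533), nor did it with the library labelled APO drought 1 alone added back (-5.44, adjusted p = 0.0783).

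**Figure D3:**
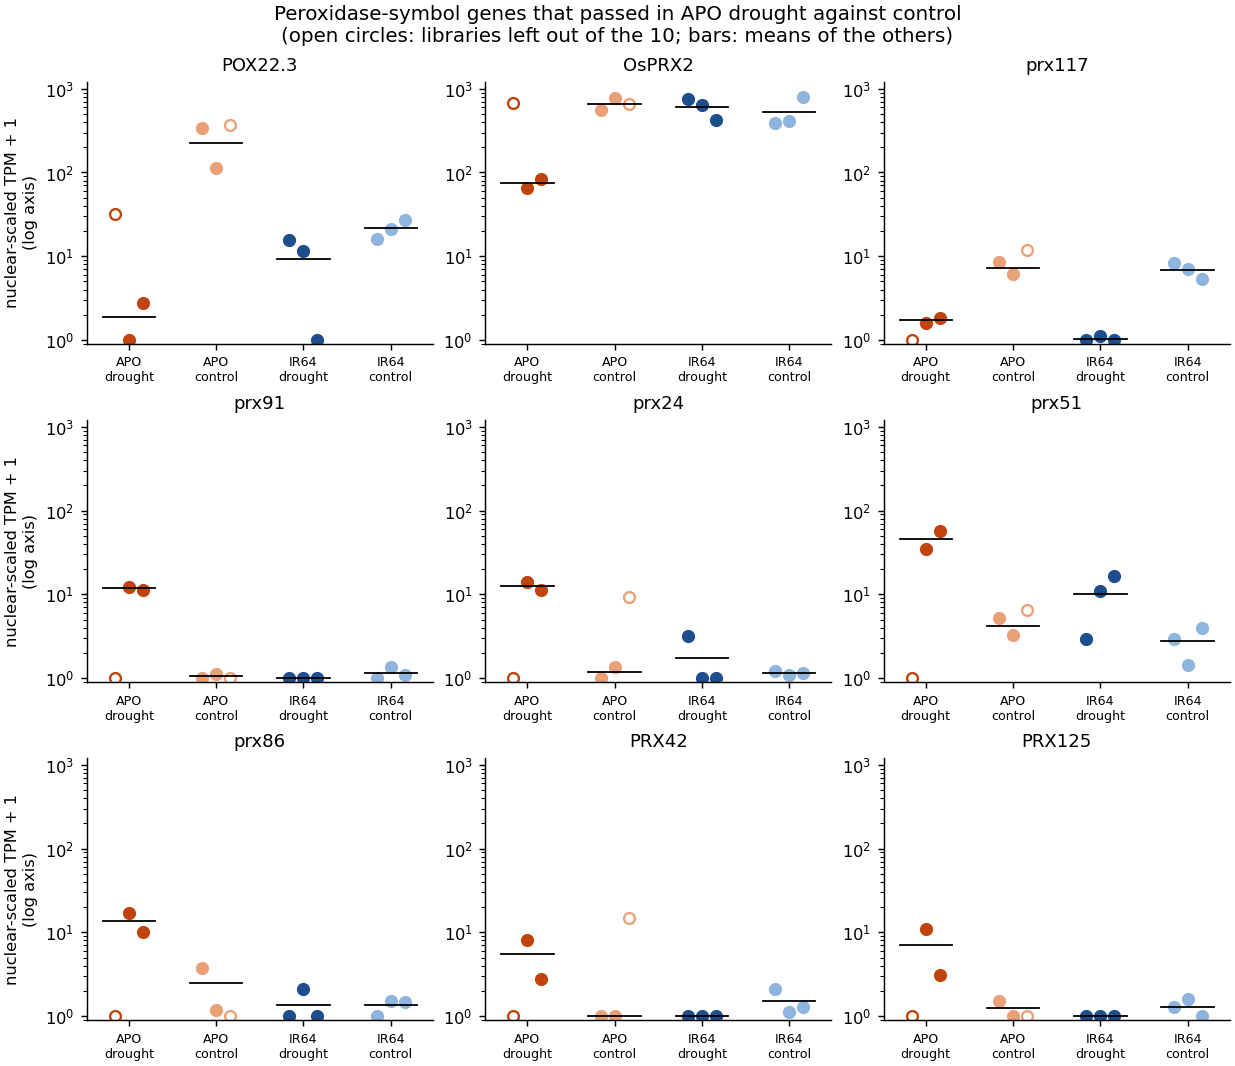
Nuclear-scaled TPM of the 9 members that passed in APO drought against control, one panel per gene and one point per library, as nuclear TPM + 1 on a log axis, drought left of control in each cultivar. Open circles are the 2 libraries left out of the 10 and bars are means of the others. POX22.3, OsPRX2 and prx117 are lower and the other 6 higher in APO drought 2 and 3 than in APO control 1 and 2.

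POX22.3 lies in an array of 6 members on chromosome 7 between 28660188 and 28692640, in the order prx109, POX8.1, POX22.3, POX5.1, POX3006 and prx115. All 6 were lower in APO drought 2 and 3 on average, and POX22.3 passed. prx109, POX8.1 and POX5.1 also passed, as lower, without IR64 drought 3 and in a fit of the APO groups alone. The 6 levels added up to 10.5 and 9.49 nuclear TPM in APO drought 2 and 3, against 434 and 219 in APO control 1 and 2. The left-out libraries had 86.1 in the one labelled APO drought 1 and 673 in APO control 3, and the groups did not overlap.

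POX8.1, which like POX22.3 is known from leaves resisting bacterial blight, was at 4.20 and 0.543 in APO drought 2 and 3, against 25.2 and 25.0 in APO control 1 and 2 (log2 difference -3.20, adjusted p = 0.134 in limma). POX5.1 was at 0 and 5.47, against 43.5 and 65.7 in APO control 1 and 2 (-4.42, adjusted p = 0.12). The library labelled APO drought 1 had 55.2 for POX5.1, between the control values, and so this gene's groups overlapped with all 12 libraries. prx109 was at 0 and 0.544 in APO drought 2 and 3, against 12.69 and 9.996 in APO control 1 and 2, with an adjusted p of 0.067. With all 12 libraries prx109 passed, at -4.06 ± 0.98 and an adjusted p of 0.0412. prx115 (-2.35) and POX3006 (-1.04) had adjusted p-values of 0.141 and 0.513. Neighbouring duplicates may share reads, and how the submitters' counting split them is not stated, so the values of single genes in the array are less certain than their sum.

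**Figure D4:**
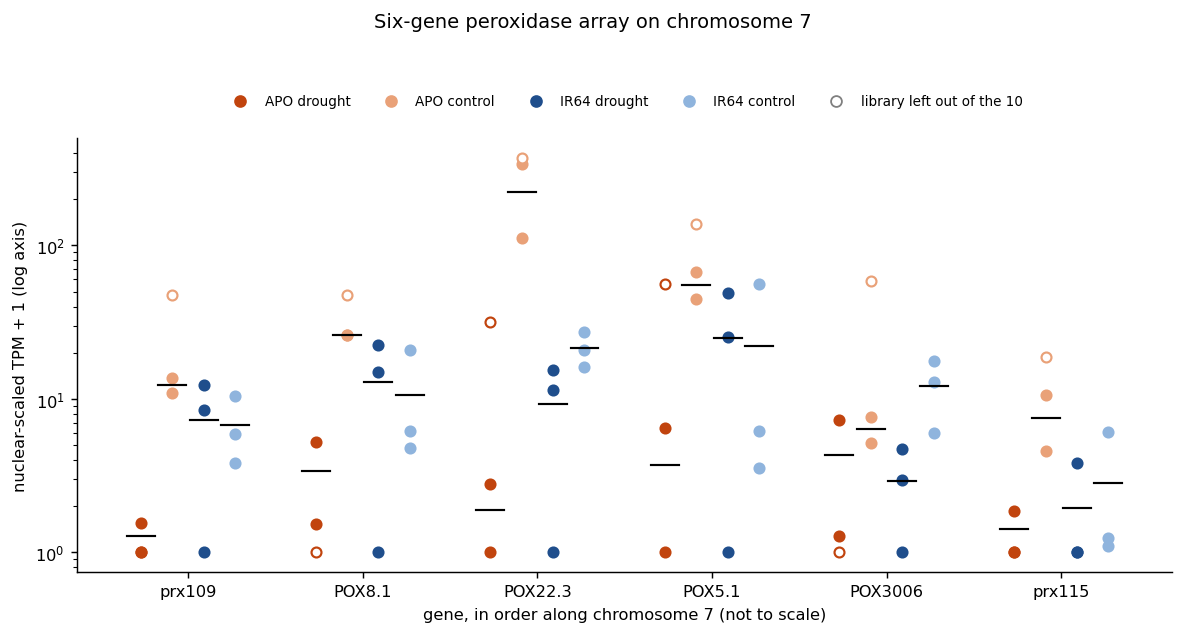
Nuclear-scaled TPM of the 6 peroxidases of the chromosome 7 array in their order along the chromosome, per library and group, as nuclear TPM + 1 on a log axis. Open circles are the libraries left out of the 10 and bars are means of the others. In APO drought 2 and 3 their sum is 10.5 and 9.49, against 434 and 219 in APO control 1 and 2.

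POXgX9, a peroxidase symbol outside the rule, lies inside the same array. It was at 0 in all 6 drought libraries, against 4.51 in APO control 1, 23.1 in APO control 3, 0.185 in IR64 control 2 and 0 in the other 3 control libraries, and was not tested.

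OsPRX2 (chromosome 2, 19882081 to 19885745, plus strand) was the most abundant gene of the rule and the most precise of those that fell. It had 64.4 and 82.8 nuclear TPM in APO drought 2 and 3, against 552 and 777 in APO control 1 and 2, a difference of -3.15 ± 0.47 (adjusted p = 0.002, limma). The library labelled APO drought 1 had 683, inside the control range, and with it and APO control 3 the gene no longer passed (adjusted p = 0.13). The nuclear-encoded photosynthesis markers were low in the same 2 drought libraries, as given above, and their part in this result was not tested.

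prx117 (Os08g0113000, chromosome 8, 697180 to 698576, plus strand) passed in both cultivars, always downward. It had 0.614 and 0.838 nuclear TPM in APO drought 2 and 3, against 7.57 and 5.08 in APO control 1 and 2. In IR64 it had 0, 0.114 and 0 in drought, against 7.25, 6.03 and 4.32 in control. All drought libraries of both cultivars, the one labelled APO drought 1 at 0 included, were below every control library, APO control 3 at 10.7 included. In the library labelled APO drought 1 and in IR64 drought 3, 12 and 13 of the 109 peroxidases were above 0, so a 0 there says little. Coverage of prx117 was 0.0591 and 1.55 reads per base in APO drought 2 and 3, against 1.81 and 10.1 in APO control 1 and 2. In IR64 it was 0, 0.0641 and 0 in drought, against 8.11, 21.3 and 10.4 in control. The differences were -2.07 ± 0.60 in APO (adjusted p = 0.0437) and -2.70 ± 0.49 in IR64 (adjusted p = 0.0272). With all 12 libraries the APO difference was -2.56 with an adjusted p of 0.0625.

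Apart from prx51, the members that rose in APO were close to 0 in most other libraries. prx91 (Os06g0695400, chromosome 6, 29035686 to 29038182, plus strand) had 11.3 and 10.3 nuclear TPM in APO drought 2 and 3, against 0 and 0.107 in APO control 1 and 2, and at most 0.360 in the 6 IR64 libraries. The difference was 3.49 ± 0.52 with an adjusted p of 0.0018 in limma. It was at 0 in both left-out libraries, and with all 12 libraries the difference was 2.32 and did not pass (adjusted p = 0.159). Its coverage was 1.09 and 19.1 reads per base in APO drought 2 and 3, against 0 and 0.213 in APO control 1 and 2, so the value in APO drought 2 rests on few reads. Coverage per FPKM was 1.31 in APO drought 2 and 1.25 in APO control 1, where prx91 was at 0. Nuclear loci held 13.3% and 33.0% of TPM there, so for the same nuclear TPM APO control 1 was the deeper. OsPRX2 had a coverage of 6.19 at 64.4 nuclear TPM in APO drought 2 and 132 at 552 in APO control 1.

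prx24 (Os02g0161800, chromosome 2, minus strand) had 13.2 and 10.3 in APO drought 2 and 3, against 0 and 0.362 in APO control 1 and 2 (3.44 ± 0.69, adjusted p = 0.00862), but 8.34 in the left-out APO control 3. The coverage of prx24 was 1.265 and 19.03 reads per base in APO drought 2 and 3, so its value in APO drought 2 also rests on few reads. prx51 (Os03g0762400, chromosome 3, plus strand) was the most abundant of those that rose. It had 33.4 and 56.1 in APO drought 2 and 3, against 4.22 and 2.23 in APO control 1 and 2 (3.43 ± 0.87, adjusted p = 0.0258). Its coverage in these drought libraries was 3.21 and 103 reads per base. In IR64 prx51 had 1.96, 9.94 and 15.5 in drought, against 1.93, 0.429 and 3.00 in control, where the groups overlapped and the test did not pass (1.67, adjusted p = 0.248).

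prx86, PRX42 and PRX125 passed with smaller differences. prx86 (Os06g0547400, chromosome 6) had 16.2 and 9.10 in APO drought 2 and 3, against 2.78 and 0.193 in APO control 1 and 2 (2.63 ± 0.74, adjusted p = 0.0384). PRX42 (Os03g0368000, chromosome 3) had 7.17 and 1.75, against 0 in both APO control 1 and 2 (2.25 ± 0.63, adjusted p = 0.038). The left-out APO control 3 had 13.7 for PRX42, above both drought libraries. PRX125 (Os10g0109300, chromosome 10) had 9.95 and 2.06 in APO drought 2 and 3, against 0.512 and 0 in APO control 1 and 2 (2.24 ± 0.66, adjusted p = 0.0471). Coverage of PRX42 and PRX125 was under 1 read per base in APO drought 2, at 0.689 and 0.957, and that of prx86 was 1.56. prx15 just missed the threshold, with 42.67 and 22.28 in APO drought 2 and 3, against 2.70 and 2.87 in APO control 1 and 2 (3.08, adjusted p = 0.0666).

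The count of members that passed in APO rested on single libraries. It was 9 with the 10 libraries. Omitting APO drought 2 gave 3 members and omitting APO drought 3 gave 14, while omitting APO control 1 gave 2 and omitting APO control 2 gave 4. Leaving out a library of the other cultivar changes the shared spread and the set of genes tested. The count was then 5 without IR64 control 1 or IR64 control 2 and 13 without IR64 drought 3. Of all genes, 5.33% rose and 6% fell without IR64 control 1, and 5.61% and 6.51% without IR64 control 2. Without IR64 drought 3, 8.3% rose and 9.8% fell. With all 12 libraries, 0 of 85 tested members rose and POX22.3 and prx109 fell (2.4%), against 0.943% and 2.08% of all genes. None of the 6 members that rose passed there. With the library labelled APO drought 1 alone added back the count was 0, and with APO control 3 alone added back it was 8. Of all genes 0.752% rose and 1.03% fell in the first of these fits, and 4.83% and 6.76% in the second. The split also moved with the scaling. With median-of-ratios scaling 8 rose and 2 fell, against 9.08% and 7.29% of all genes. On deposited TPM of the 10 libraries 1 rose and 5 fell, against 2.59% and 3.97%.

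In IR64, prx117 was the only member that passed, and 0 of 50 rose, against 1.12% of all genes that rose and 0.307% that fell. At an unadjusted p under 0.05 there were 7 members, but the share of all genes at that level was not counted, so no excess is shown. The prx117 call was lost with all 12 libraries, where 0.00382% of all genes rose and 0.00382% fell. It was also lost with either left-out library added back, and without APO control 1, APO control 2, IR64 drought 1, IR64 drought 2, IR64 drought 3, IR64 control 1 or IR64 control 2. Without IR64 control 3 the count was 2, since prx16 also rose, but 12.5% of all genes then rose and 4.58% fell. Without IR64 drought 1 prx97 rose in place of the prx117 call, and 1.33% of all genes rose and 0.287% fell.

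The next smallest p in IR64 was that of prx71 (Os05g0135500), which did not pass. prx71 had 14.8, 111 and 44.5 nuclear TPM in IR64 drought, against 8.10, 1.41 and 0.216 in IR64 control, and the groups did not overlap (3.86 ± 0.98, adjusted p = 0.0924 in limma). In APO it had 3.51 and 2.52 in drought 2 and 3, against 0 and 5.93 in control 1 and 2. It lies at the end of an array of 7 members on chromosome 5, prx65 to prx71, whose sum was 16.4, 129 and 51.4 in IR64 drought, against 9.84, 3.57 and 2.48 in IR64 control.

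prx97, on chromosome 7, had 0.959, 35.1 and 43.1 in IR64 drought, against 3.35, 1.21 and 1.91 in IR64 control, and its groups overlapped (2.27, adjusted p = 0.275). It was chosen after its values were seen. The secondary wall markers OsCesA4 and CESA7, cellulose synthases of vascular and fibre walls, were high in the same libraries. They added up to 8.35, 81.5 and 76.8 nuclear TPM in IR64 drought, against 7.18, 1.19 and 1.25 in IR64 control. Their part in the values of prx71 and prx97 was not tested. POX3006 had 3.74, 1.98 and 0 in IR64 drought, against 5.01, 16.7 and 12.0 in IR64 control (-2.20 ± 0.82, adjusted p = 0.194). POX22.3 was at 14.5, 10.5 and 0 in IR64 drought, against 15.3, 19.9 and 26.4 in IR64 control, lower in every drought library but not past the threshold (-1.90, adjusted p = 0.314). The whole chromosome 7 array added up to 99.0, 60.9 and 0 in IR64 drought, against 34.4, 47.3 and 128 in IR64 control, and the groups overlapped.

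Whether drought moved a member differently in APO and IR64 was tested as the difference of the responses, APO minus IR64. 1 member was higher and 1 lower, prx91 and OsPRX2, against 1.54% and 3.65% of all genes. For prx91 the difference was 3.67 ± 0.67 (adjusted p = 0.0186, limma), since it was near 0 in IR64 with and without drought. For OsPRX2 it was -3.38 ± 0.61 (adjusted p = 0.0188). OsPRX2 had 748, 642 and 420 nuclear TPM in IR64 drought, against 386, 408 and 794 in IR64 control, and these groups overlapped (0.23 ± 0.39). prx24 (3.07, adjusted p = 0.0701), PRX42 (2.79, adjusted p = 0.0718) and POX22.3 (-4.96 ± 1.49, adjusted p = 0.0764) did not pass, so a difference between the cultivars in their response was not shown. OsPrx, the peroxiredoxin symbol outside the rule, had 74.1 and 49.4 nuclear TPM in APO drought 2 and 3, against 203 and 361 in APO control 1 and 2, and its response also differed (-2.73, adjusted p = 0.0227).

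The count of 2 members became 0 with all 12 libraries, 0 without APO drought 2, APO control 1, APO control 2 or IR64 control 1, 1 without IR64 control 2, 4 without IR64 drought 3 or IR64 control 3, and 9 without APO drought 3. With median-of-ratios scaling 2 were higher and 1 lower, against 2.76% and 2.25% of all genes. The shares of all genes moved as well, to 5.57% higher and 14.6% lower without IR64 control 3. Without IR64 drought 3 they were 0.923% and 2.16%. The APO and IR64 responses of POX22.3 had the same sign.

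**Figure D5:**
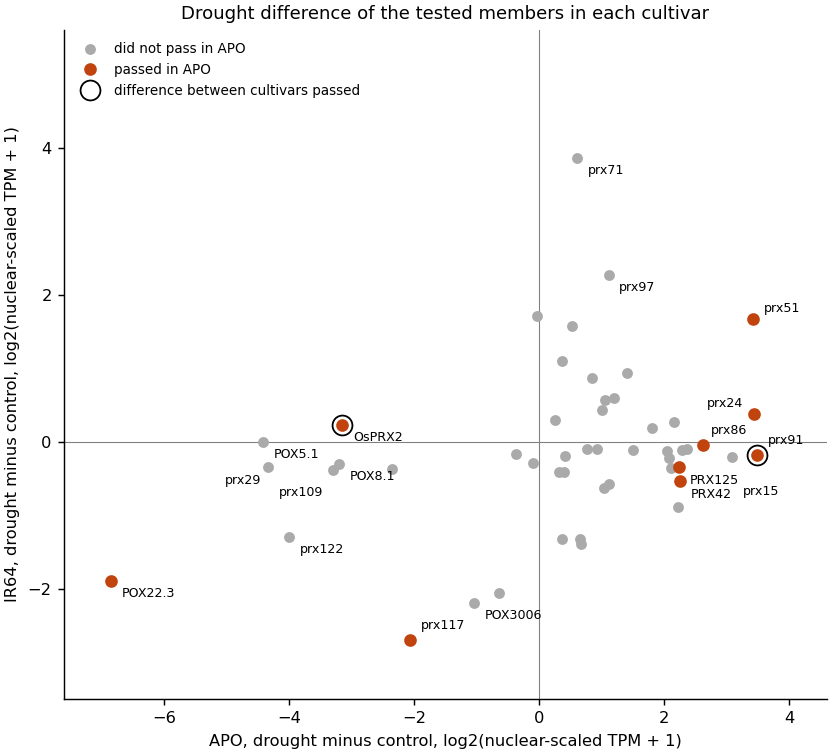
Log2 difference, drought minus control, of the 50 tested members in APO (horizontal axis) and in IR64 (vertical axis), on the log2(nuclear TPM + 1) scale, over the 10 libraries. Filled orange points passed in APO, rings mark prx91 and OsPRX2, whose difference between the cultivars passed, and POX22.3 is lowest on the APO axis at -6.86.

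In control leaves no member passed between the cultivars in limma, against 0.456% of all genes higher and 0.149% lower in APO. The share of all genes at an unadjusted p under 0.05 was not counted, and of the members 1 was there, POX22.3. It had 336 and 111 nuclear TPM in APO control 1 and 2, against 15.3, 19.9 and 26.4 in IR64 control, with 369 in the left-out APO control 3. All APO control libraries lay above all IR64 control libraries (3.21 ± 1.05, adjusted p = 0.36), and the gene passed only without IR64 drought 3, as the 1 member then called. With all 12 libraries 0 members passed, against 0.0878% of all genes higher and 0.0229% lower in APO. The next smallest p-values were those of prx115 (1.78 ± 0.91, adjusted p = 0.518) and prx77 (-1.64 ± 0.84, adjusted p = 0.52). prx77 had 0 and 1.56 in APO control 1 and 2, against 6.07, 3.69 and 2.76 in IR64 control.

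Under drought 9 of the 50 members were higher in APO and 1, OsPRX2, was lower, against 5.66% and 6.68% of all genes tested. All 9 reached the minimum mean only through APO drought 2 and 3. The 5 largest of those higher in APO were prx91 (3.56 ± 0.47, adjusted p = 0.0017), prx86 (3.36, adjusted p = 0.0112), prx24 (3.10, adjusted p = 0.0115), prx12 (2.70 ± 0.62, adjusted p = 0.0202) and PRX125 (2.53, adjusted p = 0.0237). prx12 (Os01g0326000) had 10.1 and 2.81 in APO drought 2 and 3, against 0 in all 3 IR64 drought libraries, and 11.7 in the left-out library labelled APO drought 1. Its coverage was 0.951 and 4.42 reads per base in APO drought 2 and 3. Above 0 were 31, 41 and 13 of the 109 peroxidases in IR64 drought 1, 2 and 3, against 67 and 99 in APO drought 2 and 3. The part of depth in these differences was not tested. For OsPRX2 the difference was -2.99 ± 0.43 (adjusted p = 0.0024). These values share the APO drought libraries with the comparison of APO drought and control. With all 12 libraries 0 members passed, against 0.0115% of all genes higher and 0.164% lower, and with 1 library left out at a time the count of 10 became 2 without APO drought 2, 17 without APO drought 3, 6 without any one of APO control 1, APO control 2, IR64 drought 1 and IR64 control 2, and 7 to 9 in the other cases.

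71 of the 110 members lie in 22 arrays, defined here as members within 100 kb of the next, and 11 arrays of 3 or more hold 49 members. The other arrays of 3 or more had sums of at most 129 nuclear TPM in any library. The array of prx91 on chromosome 6 (prx90 to prx93) added up to 17.9 and 14.5 nuclear TPM in APO drought 2 and 3, against 0.719 and 0.796 in APO control 1 and 2, and to 0 in all 3 IR64 drought libraries, against 1.16, 1.04 and 1.35 in IR64 control. The left-out APO control 3 had 21.2 for that array. prx91 was the only one of its 4 members that reached the minimum for testing. The array of prx86 (prx86 to prx88) added up to 29.7 and 10.7 in APO drought 2 and 3, against 3.67 and 0.617 in APO control 1 and 2, and 37.0 in APO control 3. The array of prx12, prx14, prx15 and prx16 on chromosome 1 added up to 70.1 and 43.8 in APO drought 2 and 3, against 20.95 and 14.1 in APO control 1 and 2. The left-out libraries had 12.1 in the one labelled APO drought 1 and 50.9 in APO control 3, so the APO groups overlapped with all 12. In IR64 it added up to 28.8, 15.5 and 24.0 in IR64 drought, against 8.77, 5.41 and 20.2 in IR64 control.

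Genes of lignin monomer synthesis and of wall oxidation, which make the phenolics that peroxidases oxidise or the peroxide they use, moved in both directions in APO. 108 genes matched the list by symbol and 75 were tested. In APO 7 rose (9.3%) and 10 fell (13.3%), against 6.8% and 7.6% of all genes tested, with a median of 0.54 against -0.24. Laccases, copper enzymes that also oxidise lignin units, gave the largest rise: OsLAC28 had 436 and 577 nuclear TPM in APO drought 2 and 3, against 2.97 and 3.70 in APO control 1 and 2 (6.86 ± 1.06, adjusted p = 0.00225 in limma). Of the left-out libraries, APO control 3 had 30.1 and the one labelled APO drought 1 had 10.5. OsLAC28 had 5.70, 64.2 and 20.4 in IR64 drought, against 24.6, 14.6 and 2.18 in IR64 control, and its response differed between the cultivars (5.90 ± 1.36, adjusted p = 0.0374).

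OsLAC29 (5.31, adjusted p = 0.0257 in limma) and C4H2, a cinnamate hydroxylase early in the pathway (3.44, adjusted p = 0.0289), also rose in APO. So did OsHCT1, a hydroxycinnamoyl transferase by symbol (2.30, adjusted p = 0.00998), OsCCR23 (4.68), OsCCR29 (2.87) and OsPAL at Os02g0626400 (2.35). The library labelled APO drought 1 had 0 for OsLAC29, C4H2, OsCCR23 and OsCCR29, 36.2 for OsHCT1 and 75.5 for that OsPAL. With it included, the APO groups of all these genes overlapped. OsPAL07, by symbol a phenylalanine ammonia-lyase, the entry enzyme of the pathway, fell: it had 11.5 and 8.07 in APO drought 2 and 3, against 493 and 249 in APO control 1 and 2 (-5.05, adjusted p = 0.00434). PAL11 (adjusted p = 0.0205), OsCCR16 (-2.30) and the transferase symbols OsHCT3 (-4.01) and HCT3 (-1.31) fell too. 4 of the 9 tested cinnamyl alcohol dehydrogenases, which make the final lignin alcohols, fell and 0 rose, with OsCAD6 (-4.90, adjusted p = 0.00635), OsCAD8C (-3.45) and OsCAD8B (-2.86) the largest. rbohE, an NADPH oxidase that makes superoxide, a source of peroxide, fell as well (-3.94, adjusted p = 0.0153). With all 12 libraries the APO groups of PAL11 and OsHCT3 overlapped, and those of the other named genes that fell did not. In IR64 1 gene of the list rose (1.3%) and 0 fell, against 1.12% and 0.307% of all genes, so the share that rose was near the background. That gene, OsPAL at Os02g0626100, had 139, 241 and 198 nuclear TPM in drought, against 39.8, 32.5 and 51.7 in control (2.18 ± 0.38, adjusted p = 0.0237). Between the cultivars 0 genes of the list passed in control leaves, and 7 (9.3%) were higher and 2 (2.7%) lower in APO under drought, against 5.66% and 6.68% of all genes.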

How the data were processed

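Polysome-bound mRNA of rice leaves was sequenced in 12 libraries. Per the submitters' processing notes, HISAT2 2.1.0, StringTie 1.3.4 and DESeq2 2.11.38 were used. The deposited StringTie tables give coverage, FPKM and TPM per gene. Genome build and library depth are not given in the sources used here, and no sequence was printed. Here, the TPM deposited by the authors was rescaled over nuclear loci to 1000000, and log2(value + 1) of genes with a mean of at least 1 over the 10 libraries with at least 10% of TPM on nuclear loci was tested in limma 3.58.1 (trend, 4 groups in one fit, R 4.3.3), two-sided, with Benjamini-Hochberg adjustment over 22812 genes and calls at an adjusted p under 0.05. The coverage signal and FPKM, as deposited, served only to describe depth. Fold changes of low genes are understated on this scale. The fit was tested on simulated data.

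The members and gene lists were chosen with earlier results of these data known. Named were called members (up to 12 per direction in each drought comparison, 5 in the others), the 10 highest by mean, the 3 with the smallest p where fewer than 3 passed, arrays of 3 or more, and up to 3 called genes per step of the lignin list. In that list, 62 CCCH zinc-finger genes that matched the pattern for coumaroyl hydroxylases were dropped by name. Root, meristem and guard cell markers were also checked.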

Additional observations from a re-analysis of the deposited data

Results flagged for a closer look

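Among the 50 tested members and the 75 tested genes of the lignin list, 3 had a drought response that differed between APO and IR64 by the test of that difference in limma, against 1.54% of all genes with a higher and 3.65% with a lower response in APO. prx91 had a difference of responses of 3.67 on the log2 scale, OsPRX2 of -3.38 and OsLAC28, of the lignin list, of 5.90. Their adjusted p-values were 0.0186, 0.0188 and 0.0374. Each rests on APO drought 2 and 3 against APO control 1 and 2.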

How the results depend on the processing

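The 9 members that passed in APO kept their direction there in every alternative in which they were tested. prx16, which did not pass in APO, had a difference of 0.53 with 10 libraries and -0.88 with all 12. In APO drought against control the call was kept in 19 of 21 alternatives for POX22.3, 16 of 18 for prx91, 17 of 21 for OsPRX2, 13 of 19 for prx24 and 11 of 21 for prx51, but in 7 of 19 for prx86, 5 of 15 for PRX42, 3 of 17 for PRX125 and 3 of 20 for prx117. The APO count of 9 became 12 in a fit of only the groups compared, 10 with no filter, 4 with a pseudocount of 0.1, 3 with a mean of at least 5 (the 3 of the 9 that reach it), 2 with all 12 libraries (POX22.3 and prx109, which is not one of the 9), 1 on deposited TPM of 12 libraries and 0 with APO control 3 alone left out. Leaving out 1 library at a time gave 2 to 14 in APO, 0 to 2 in IR64, 0 to 9 for the difference of responses, 0 to 1 between cultivars in control and 2 to 17 between cultivars in drought. The IR64 count of 1 became 0 with no filter, with all 12 libraries and on deposited TPM of 12 libraries. It was also 0 in a fit of only the groups compared and with either 11 libraries, and 3 on deposited TPM of 10 libraries. With a mean of at least 5 it was 0 because prx117, at a mean of 3.18, was not tested. The count of 2 for the difference of responses became 1 with a mean of at least 5, which prx91 does not reach. It was 0 with all 12 libraries, on deposited TPM of 10 or 12 libraries and with APO control 3 alone left out. A fit of only the groups compared needs all 4 groups there and was not run. Between cultivars in drought the count of 10 became 17 with no filter, where 5.94% of all genes were higher and 3.68% lower. It was 1 (OsPRX2) with a mean of at least 5, which none of the members that were higher in APO reached. With all 12 libraries it was 0, and on deposited TPM of 10 and 12 libraries 2 and 0. It was 3 in a fit of only the groups compared, 3 with the library labelled APO drought 1 alone left out and 0 with APO control 3 alone left out. The 2 fits of 11 libraries were chosen after seeing the data. Median-of-ratios scaling moved the median of all genes to 0.02 in APO, -0.21 in IR64 and 0.36 for the difference of responses, against -0.24, 0.16 and -0.33.

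With the replicate number as a block the counts were 5 in APO, 0 in IR64 and 6 between cultivars in drought. The labels do not say what a number shares, so the numbers were not taken as pairs. Deviations from the group mean of same-numbered drought and control libraries had correlations of -0.11 for APO 2, and -0.17, 0.03 and 0.01 for IR64 1, 2 and 3. With 2 libraries per APO group the deviations mirror each other, so the APO value cannot decide on pairing.

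With 2 APO libraries per group and no read counts, differences of low members were not detectable with confidence. Coverage per FPKM was lowest in IR64 drought 3, IR64 drought 1, APO control 1 and APO drought 2 of the 10 libraries. For the same nuclear TPM, APO drought 2 was shallower than IR64 drought 1 and APO control 1, and IR64 drought 3 was shallower still. OsPRX2 had a coverage of 6.19 at 64.4 nuclear TPM in APO drought 2 and 17.2 at 420 in IR64 drought 3. It had 89.0 at 748 in IR64 drought 1 and 132 at 552 in APO control 1.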
